A study of Mus musculus with 6 samples.

Results

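A set of 10 genes of the tailbud and posterior presomitic mesoderm were followed in mouse embryos with and without Nrarp: the transcription factor genes Tbx6, Msgn1, Cdx2, Cdx4, Evx1 and Nkx1-2, the Wnt ligand genes Wnt3a, Wnt5a and Wnt5b, and the R-spondin gene Rspo3. They were taken by symbol as regulators known from the tail end of the embryo, and all 10 had a named probe, 1 each, among 13840 named genes and 33012 probes. RNA came from presomitic mesoderm, the unsegmented tissue from which somites bud, dissected at embryonic day 10.5. The knockout embryos carried LacZ in place of the Nrarp coding region, and the wild-type embryos were littermates from crosses between heterozygotes. Nrarp encodes an ankyrin-repeat protein that Notch induces and that acts back on Notch. The arrays were one-colour, 3 for each genotype with the numbers 1 to 3, and the tissue came from 12 dissections of each genotype. The labels do not say how these were shared out among the arrays, so the spread behind each p-value is that between these samples and may be technical.

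Axis extension is fed by progenitors in the tailbud that can give rise to neural or mesodermal descendants. Wnt3a, the canonical Wnt ligand of the tailbud, acts through β-catenin and Lef/Tcf factors and is needed to keep these progenitors and to turn on the mesodermal genes Tbx6 and Msgn1. Cdx factors hold the posterior programme, Nkx1-2 marks the progenitor and preneural region, Wnt5a acts largely through the non-canonical, polarity branch, and R-spondin ligands raise Wnt signalling by sparing Frizzled receptors from turnover. The series is about Notch, the pace of the segmentation clock and the count of vertebrae.

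The stretch before the start site is shown for 3 of the transcription factor genes that behaved differently across the arrays below. These are the 250 bases before the RefSeq start in assembly GRCm38.p6, each read 5′ to 3′ on the strand of the gene. They come from chr12:11208949-11209198 (minus strand) for Msgn1, chr5:147307250-147307499 (minus strand) for Cdx2 and chr7:126781233-126781482 (plus strand) for Tbx6. Capitals mark matches to the Lef/Tcf core CTTTGA and to the RBPJ core TGGGAA, searched on both strands.
Msgn1: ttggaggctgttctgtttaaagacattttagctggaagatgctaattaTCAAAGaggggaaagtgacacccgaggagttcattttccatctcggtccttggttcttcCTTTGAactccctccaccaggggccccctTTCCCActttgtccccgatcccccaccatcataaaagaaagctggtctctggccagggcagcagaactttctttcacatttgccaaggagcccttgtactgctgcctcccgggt
Cdx2: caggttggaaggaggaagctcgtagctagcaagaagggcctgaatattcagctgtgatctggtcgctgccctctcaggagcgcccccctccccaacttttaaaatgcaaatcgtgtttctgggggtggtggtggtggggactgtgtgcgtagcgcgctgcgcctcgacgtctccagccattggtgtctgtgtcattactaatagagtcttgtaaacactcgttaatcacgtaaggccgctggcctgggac
Tbx6: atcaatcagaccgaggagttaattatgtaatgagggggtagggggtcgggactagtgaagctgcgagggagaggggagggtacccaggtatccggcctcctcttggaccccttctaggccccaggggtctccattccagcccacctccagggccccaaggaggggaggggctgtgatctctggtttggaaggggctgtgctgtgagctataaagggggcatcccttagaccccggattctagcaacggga
Msgn1 had 2 Lef/Tcf matches, the first at 202 to 197 bases before the start (reading TCAAAG, on the opposite strand) and the next at 143 to 138 bases before it. It also had 1 RBPJ match, at 114 to 109 bases before the start and on the opposite strand, and no match overlapped another. Tbx6 and Cdx2 had 0 matches to either core in this window. Over all 32851 RefSeq promoter windows of this length, 13.8% held at least 1 Lef/Tcf match, 1.37% held 2 or more and 21.6% held at least 1 RBPJ match. A promoter entry was matched for 8 of the 10 genes, with 10 windows among them. Besides Msgn1, a Lef/Tcf match stood in 1 of the 3 Wnt5b windows, and RBPJ matches stood in the Evx1 window and in another Wnt5b window. These matches describe letters, and binding was not measured.

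The array values are intensities that the authors had scaled to a median near 1 per array (0.981 to 0.993). All 10 genes read above the array median on all 6 arrays, and 8 of them also above the 75th percentile, which lay between 4.90 and 9.71. The exceptions were Msgn1, above it on 2 arrays, and Nkx1-2, above it on 1. The Nrarp probe read 14.3, 42.5 and 23.3 in the knockout, against 318, 429 and 448 in wild type. This 16.3-fold difference had a limma adjusted p of 0.428 without the block and 0.00042 with it, so the unblocked fit missed even the replaced gene. The replicate 1 arrays of both genotypes stood apart from the other 4 in their spread of values, with the 75th percentile lying above the 10th by a factor of 56.9 in the knockout and 42.7 in wild type against 12.4 to 16.0 elsewhere. The differences of the 10 genes between genotypes are therefore also given without those arrays. Results for the other gene lists, and the search for similar genes, use all 6 arrays.

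The measured differences of the posterior genes between genotypes were small for all but Nkx1-2, and 0 of them passed the test. On the log2 scale 9 of the 10 differences between knockout and wild type lay within 0.3 of 0, with 3 positive and 7 negative, a median of -0.03 and a range from -0.29 (Rspo3) to 0.75 (Nkx1-2). The median difference over all probes was -0.01. In limma without a replicate term 0 of the 10 passed an adjusted p of 0.05, where 0% of all probes passed, and all 10 had an adjusted p of 1.00. An unadjusted p under 0.05 was reached by 0 of the 10 in that fit, against 0.657% of all probes. With the replicate number as a block 0 of the 10 passed (0.00606% of all probes) and only Tbx6 had an unadjusted p under 0.05 (3.75% of all probes). The limma adjusted p was 0.999 for each of the 10 with the block. Within replicates 2 and 3 alone the log2 differences were 0.24 for Tbx6, 0.22 for Msgn1, -0.37 for Cdx2, -0.27 for Cdx4, -0.02 for Evx1, 0.88 for Nkx1-2, -0.02 for Wnt3a, 0.0042 for Wnt5a, -0.14 for Wnt5b and -0.37 for Rspo3, and 0 of the 10 passed there. A miss does not show equal levels, so the intervals are given gene by gene. Those of the blocked fit are narrower, at a median SE of 0.142 against 0.349 without the block. They rest on 2 residual degrees of freedom. Pairs below join arrays of like replicate number, a pairing that the data bear out for replicate 1 only.

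**Figure D1:**
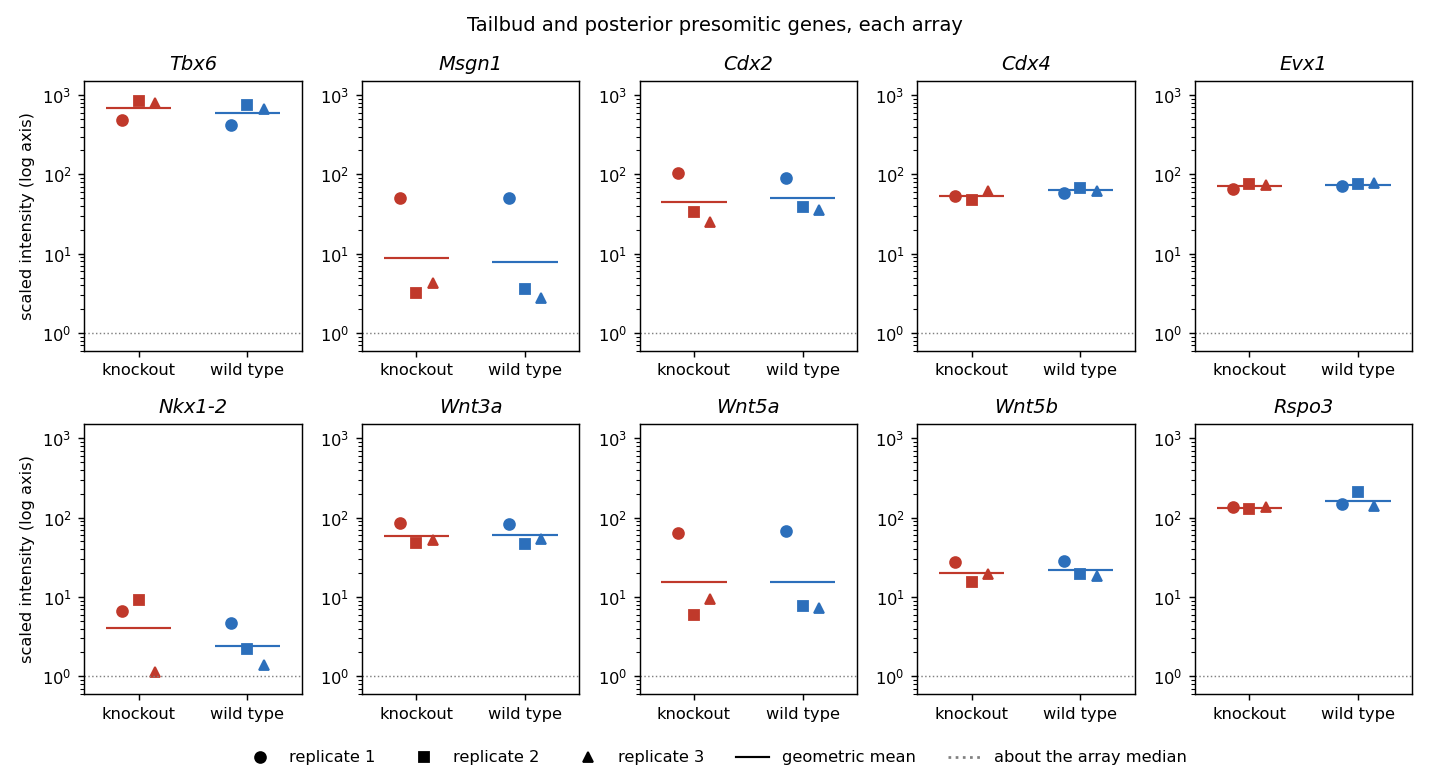
Scaled intensity (log axis) of each gene on the 3 knockout arrays (red) and the 3 wild-type arrays (blue), with symbols for the replicate number and a line at the geometric mean. Msgn1 and Wnt5a separate by replicate number, at 50.1 and 64.8 on knockout replicate 1 and 50.2 and 67.3 on wild-type replicate 1, and not by genotype.

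Tbx6, a T-box factor without which paraxial progenitors form neural tissue in place of somites, read 487, 848 and 802 in the knockout, against 416, 745 and 657 in wild type, in the order of replicates 1 to 3. Replicate 1 was the lowest array of each genotype, and the groups overlapped. Among replicates 2 and 3 both knockout arrays lay above both wild-type arrays, a pattern whose share over all probes was not counted. The log2 difference was 0.23 (SE 0.310 without and 0.0887 with the replicate block), and the fold was 1.18 with a blocked 95% interval of 1.02 to 1.35. The 3 pairs gave 0.23, 0.19 and 0.29. Tbx6 was the 1 gene of the 10 higher in the knockout in all pairs, a pattern shared by 13.2% of all probes. Its blocked unadjusted p in limma was 0.0281 and its adjusted p 0.999, and the exact permutation test of 3 against 3 arrays gave p = 0.5 (two-sided), in a design that cannot go below 0.1. Without wild-type replicate 1, which leaves the low knockout replicate 1 unmatched, the log2 difference was -0.02. With the block but no intensity trend in the variance model the limma unadjusted p was 0.303.

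Msgn1, a basic helix-loop-helix factor that drives progenitors out of the tailbud into presomitic fate, read 50.1, 3.18 and 4.30 in the knockout, against 50.2, 3.59 and 2.80 in wild type. The genotypes lay side by side on replicate 1 and in a common low range on replicates 2 and 3. The pairs gave log2 differences of -0.0018, -0.18 and 0.62, and the mean difference was 0.15. The fold was 1.11, with a 95% interval of 0.796 to 1.54 with the block and 0.124 to 9.88 without it. The unblocked interval holds the gap of Msgn1 between replicate 1 and the other arrays, and the genotype means were 19.2 ± 26.8 in the knockout and 18.9 ± 27.1 in wild type (SD, n = 3 each).

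The caudal genes Cdx2 and Cdx4, homeobox factors that maintain the tailbud and set posterior Hox expression, did not pass. Cdx2 read 104, 34.0 and 24.8 in the knockout, against 89.1, 39.2 and 36.0 in wild type. Knockout arrays were the highest and the 2 lowest of the 6, and the pairs gave log2 differences of 0.22, -0.21 and -0.54. The mean difference for Cdx2 was -0.18 and the fold 0.885 (95% interval 0.694 to 1.13 with the block and 0.340 to 2.30 without it). Within replicates 2 and 3 alone, all knockout values of Cdx2 lay below all wild-type values, at a log2 difference of -0.37 (limma adjusted p = 0.995). Cdx4 and Rspo3 separated in the same direction there. The share of all probes separating in 2 against 2 arrays was not counted, so no weight is put on it. Cdx4 was steadier, at 53.9, 48.0 and 61.1 in the knockout, against 58.8, 68.0 and 62.5 in wild type. The knockout held the 2 lowest of the 6 values, with an overlap at knockout replicate 3. The log2 difference of Cdx4 was -0.22 (SE 0.129 with the block), a fold of 0.858. Its 95% interval was 0.700 to 1.05 with the block and 0.577 to 1.28 without it. The exact permutation test gave p = 0.2 (two-sided).

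Evx1, an even-skipped homeobox factor of the primitive streak and tailbud, varied least among the 10. It read 65.4, 76.7 and 73.2 in the knockout, against 70.9, 75.1 and 77.1 in wild type, so the highest of the 6 values was 1.18 times the lowest. Its log2 difference of -0.05 had a blocked 95% interval of -0.30 to 0.19, or folds between 0.813 and 1.14. Without the block the interval held folds from 0.664 to 1.40.

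Nkx1-2, a homeobox factor of the progenitor and preneural region, gave the largest difference of the 10 and, in the blocked fit, the one with the largest standard error (0.413). It read 6.61, 9.04 and 1.14 in the knockout, against 4.75, 2.20 and 1.38 in wild type. The probe was dim, with both replicate 3 values near the medians of their arrays (0.992 and 0.993). Knockout arrays were both the highest and the lowest, and the pairs gave log2 differences of 0.48, 2.04 and -0.27. The fold was 1.68, with a 95% interval of 0.876 to 3.22 with the block and 0.432 to 6.53 without it. The unadjusted p in limma with the block was 0.105. Knockout replicate 2 carried much of it: the log2 difference was 0.18 without that array, and 1.67 without knockout replicate 3. Under limma's array weights it was -0.11, and with an offset of 1 added to the intensities it was 0.63.

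Among the ligands, the R-spondin gene was the one whose groups did not overlap. Rspo3, which potentiates Wnt signalling through Lgr receptors, read 137, 127 and 138 in the knockout, against 150, 207 and 141 in wild type. All knockout arrays lay below all wild-type arrays, but the gap between knockout replicate 3 and wild-type replicate 3 was small and the largest part of the difference came from wild-type replicate 2. Complete separation in this direction was found for 1.74% of all probes, and for 1 of the 10 genes. The means were 134 ± 5.67 in the knockout and 166 ± 36.0 in wild type (SD, n = 3 each), a log2 difference of -0.29. The fold of 0.819 had a 95% interval of 0.658 to 1.02 with the block and 0.556 to 1.21 without it. The exact permutation test gave p = 0.1 (two-sided), the smallest that 3 against 3 arrays allow. The unadjusted p in limma was 0.268 without and 0.0704 with the block. With the block but no intensity trend in the variance model the limma unadjusted p was 0.302. The pairs gave -0.13, -0.70 and -0.03, and without wild-type replicate 2 the log2 difference was -0.12. Rspo3 and Cdx4 were the 2 genes of the 10 lower in the knockout in all 3 pairs, a pattern shared by 10.5% of all probes. The data do not single out the pairing of numbers 2 and 3 used there.

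The 3 Wnt ligand genes had log2 differences between -0.11 and -0.01. Wnt3a read 84.8, 47.4 and 51.6 in the knockout, against 83.9, 46.8 and 53.6 in wild type. The pairs gave log2 differences of 0.02, 0.02 and -0.06. The fold of 0.995 had a 95% interval of 0.837 to 1.18 with the block and 0.566 to 1.75 without it. Wnt5a read 64.8, 5.98 and 9.46 in the knockout, against 67.3, 7.75 and 7.26 in wild type. Its high values were the replicate 1 arrays of both genotypes. Its fold of 0.989 had a 95% interval of 0.746 to 1.31 with the block and 0.165 to 5.94 without it. Wnt5b, the paralogue of Wnt5a, read 27.4, 15.4 and 19.2 in the knockout, against 28.4, 19.4 and 18.5 in wild type. The groups overlapped, and the fold of 0.925 had a 95% interval of 0.736 to 1.16 with the block and 0.528 to 1.62 without it. The probe sequences were not used here, so cross-hybridisation between the paralogues was not checked.

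**Figure D2:**
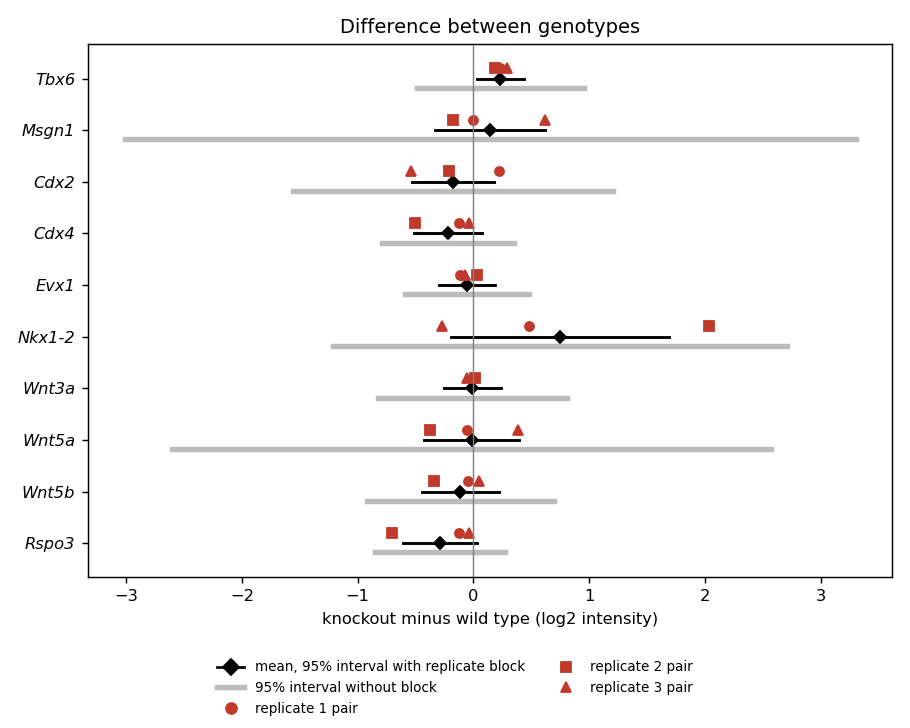
Knockout minus wild type for each gene in log2 intensity: black diamonds and bars are the mean with its 95% interval in the blocked limma fit, grey bars the 95% interval without the block, and red symbols the 3 replicate pairs. The blocked interval leaves 0 out for Tbx6 (0.03 to 0.44) and holds 0 for the other 9 genes.

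The arrays differed far more by replicate number than by genotype for 3 of these genes. Msgn1 on replicate 1 was 13.6 times its geometric mean on replicates 2 and 3 in the knockout, and 15.8 times in wild type. For Wnt5a the ratios were 8.61 in the knockout and 8.97 in wild type, and for Cdx2 they were 3.57 and 2.37. Tbx6 ran the other way, at 0.590 in the knockout and 0.594 in wild type. Cdx4, Evx1 and Rspo3 had ratios between 0.874 and 1.03 in both genotypes at the deposited scaling. Nkx1-2 had ratios of 2.06 and 2.72, Wnt3a 1.72 and 1.67, and Wnt5b 1.59 and 1.49, in the knockout and in wild type.

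These ratios were looked at because replicate 1 stood apart, so they are a description with no test. Of the 10 genes, 3 were over 2-fold above both other replicates in each genotype, where 22.5% of the 15666 probes with a mean above the scaled value of 1 were. The count of 3 is near that background, and 0 were over 2-fold below, where 4% of those probes were. The median log2 difference between replicate 1 and the others over those probes was 0.42 in the knockout and 0.30 in wild type. Centring arrays on their 75th percentiles, where replicate 1 is higher, lowered each mean difference: Msgn1 then stood at 3.10, Wnt5a at 2.36 and Cdx2 at 0.77 on the log2 scale, Tbx6 at -1.53, and Wnt3a and Wnt5b at -0.02 and -0.15, having turned sign. Cdx4, Evx1 and Rspo3, at -0.08, -0.15 and -0.07 in the deposited values, moved to -0.85, -0.92 and -0.85 with this centring and to -0.41, -0.44 and -0.19 with quantile normalization. With quantile normalization Msgn1 stood at 3.39, Wnt5a at 2.66 and Tbx6 at -1.01. The opposite courses of Msgn1 and Tbx6 across arrays were thus seen under all 3 scalings.

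**Figure D3:**
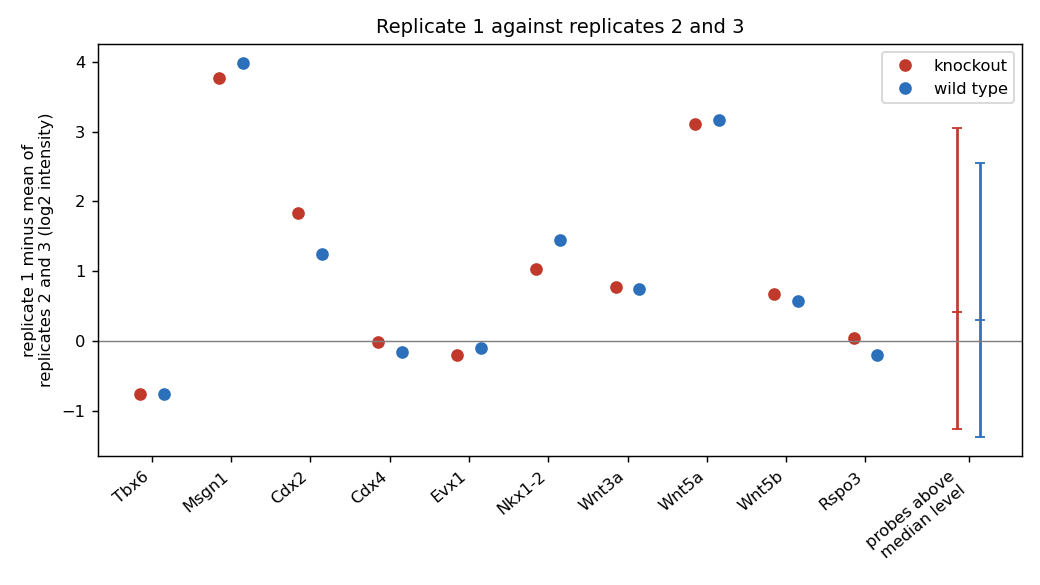
Replicate 1 minus the mean of replicates 2 and 3 in log2 intensity for each gene, in knockout (red) and wild type (blue), with the median and the 5th to 95th percentile of the 15666 probes above the median level at the right. Msgn1 (3.76 in the knockout and 3.98 in wild type) and Wnt5a (3.11 and 3.17) lie above the 95th percentile in both genotypes (3.05 and 2.55).

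Genes with the most similar course over the 6 arrays were sought for the 3 genes with the widest spread, by the root-mean-square difference between mean-centred log2 profiles among 8322 other named genes. Closest to Msgn1 were Klhdc3 (0.18), the adaptor complex gene Ap1s1 (0.19) and the Golgi protein gene Golph3 (0.20). Wnt5a stood at 0.37 from Msgn1, ranked 58 of 8322. Closest to Wnt5a were Rtl8a (0.10), the lipoprotein lipase inhibitor gene Angptl4 (0.10) and Clptm1 (0.12). Closest to Nkx1-2 were the lysophosphatidic acid receptor gene Lpar4 (0.36), Gk5 (0.40) and Tmem114 (0.43). Likeness over 6 arrays that share the replicate 1 step is a description only.

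Other genes of the posterior programme were set beside the 10. Of 29 listed genes outside the 10, 24 were measured, and in limma 0 passed without and 0 with the block, with 0 at an unadjusted p under 0.05 without it. Of the 24, 11 differed upward and 13 downward, and the median log2 difference was -0.04. The smallest p-values belonged to Nr6a1, a nuclear receptor of trunk formation (log2 difference 0.60, below the array median on every array), the retinoic acid degrading enzyme gene Cyp26a1 (-0.24), the stem cell factor gene Sall4 (0.40) and Tbx4 (-0.37, also below the array median on every array). Of these 24 genes, 11 were over 2-fold higher on replicate 1 in both genotypes, where 22.5% of the probes with a mean above the scaled value of 1 were. That share leaves out dim probes, which the 24 include. The posterior Hox genes, which Cdx factors act on, had 2 positive and 10 negative differences among 12 measured. Their median was -0.17, against -0.01 over all probes, and 0 were called. Of the 12, 8 were over 2-fold higher on replicate 1, beside the same share of 22.5%. Some of these Hox genes are also among the 24, so the 2 lists are not independent.

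Around the ligands, 18 of 19 other Wnt and R-spondin genes were measured. Of these 0 passed in limma with or without the block (0 at an unadjusted p under 0.05 without it), 12 differed upward and 6 downward, at a median log2 difference of 0.12. Wnt10a had the smallest p, at 2.22, 1.71 and 1.46 in the knockout, against 1.39, 0.188 and 0.879 in wild type (log2 difference 1.53, limma adjusted p = 1.00). It was dim, and wild-type replicate 2 read below the 10th percentile of its array (0.349). The Wnt10a pairs gave 0.67, 3.19 and 0.73. Among 17 measured receptors and co-receptors 5 differed upward and 12 downward (median -0.03), with 0 called, Fzd4 (0.77, below the array median on every array) and the R-spondin receptor gene Lgr5 (-0.42) having the smallest p-values. Among 15 measured targets and feedback genes of the pathway 9 differed upward and 6 downward (median 0.08), and 0 were called. In the blocked limma fit 3.75% of all probes had an unadjusted p under 0.05, the share to set beside the counts that follow. Of these 15 genes, 5 did, namely Dact1 (1.13), Ccnd1 (0.59), Lef1 (0.30), Notum (-0.72) and Sp5 (-0.42). They were 3 upward and 2 downward, each with an adjusted p of 0.999. Dact1 was dim, at 0.458 to 2.56, and the 3 pairs of Ccnd1 and of Notum differed in sign. Lef1 and Sp5 are named because of the count of 5. Among the other lists of this kind the blocked unadjusted count was 2 of 18 for the other Wnt and R-spondin genes (Wnt10a and, named for this count, Wnt4), 0 of 17 for the receptors, 1 of 24 for the other posterior genes (Sp5) and 0 of 12 for the posterior Hox genes. The 10 measured genes downstream of Tbx6 or Msgn1 had a median of 0.15 and 0 calls, with the segment border gene Mesp2 at 0.56 and Snai1 at 0.69, the 2 of them with an unadjusted p under 0.05 in the blocked fit.

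Markers of neighbouring tissue were summed per array to set beside these values. The 13 measured anterior presomitic and somite markers summed to between 1078 and 1083 in the knockout and between 869 and 1043 in wild type. The sums did not overlap, but how often sums of other genes separate in this way was not counted. Of the 13 markers, 6 differed upward and 7 downward, at a median log2 difference of -0.08. In the blocked limma fit 3 had an unadjusted p under 0.05 (Mesp2 and Aldh1a2 upward, Tbx18 downward), against 3.75% of all probes. The count was 2 of 13 for neural tube, 2 of 11 for lateral plate and limb, 1 of 8 for gut endoderm and 1 of 6 for notochord. It was 0 for surface ectoderm, endothelium and blood. The 13 measured neural tube markers summed to 289, 148 and 151 in the knockout, against 247, 113 and 156 in wild type. The high sum on replicate 1 was mostly Tubb3, a neuronal tubulin gene (199 in the knockout and 190 in wild type there). The median neural tube marker was lower on replicate 1 than on the others, by a log2 difference of -0.77 in the knockout and -0.46 in wild type. In each genotype this median fell on a dim probe, below the array median on every array. The 10th percentile was itself lower on replicate 1, at 0.171 in the knockout and 0.208 in wild type against 0.349 to 0.396 elsewhere. The 6 neural tube markers above the array median on all arrays went both ways. Of the 13, 2 were over 2-fold higher on replicate 1 in both genotypes, against 22.5% of the probes with a mean above the scaled value of 1. That share leaves out dim probes, which the 13 include, so the count and the share are not alike. The 9 blood markers summed to between 4928 and 7761 in the knockout and between 5824 and 7711 in wild type. Their sum was lowest on replicate 1 in each genotype, where the globin gene Hba-x read 1472 in the knockout and 1419 in wild type. The median blood marker was higher on replicate 1, by 0.47 in the knockout and 0.90 in wild type on the log2 scale. Tubb3 and Hba-x were picked out after their values were seen. The 10 measured surface ectoderm markers summed to 275 to 364 in the knockout and 265 to 359 in wild type, and the 8 of gut endoderm to 74.7 to 93.6 in the knockout and 87.5 to 103 in wild type. For the 6 notochord markers the sums were 35.0 to 38.0 in the knockout and 34.2 to 44.8 in wild type, and for the 10 endothelial markers 113 to 122 in the knockout and 118 to 149 in wild type. The 11 lateral plate and limb markers summed to 13.9 to 31.4 in the knockout and 12.1 to 24.1 in wild type. These ranges overlapped between genotypes. No value of any probe was at 0, so a sum above 0 does not show that a marker was detected. Below the array median on every array were 4 of the 13 neural tube and 2 of the 11 lateral plate and limb markers. So were 1 anterior presomitic and somite marker and 1 endothelial marker. Aldh1a2, the retinoic acid synthesising enzyme of anterior presomitic mesoderm and somites, was 8.89 times higher on replicate 1 in the knockout and 5.49 times in wild type. Its list did not follow it: the median anterior marker differed on replicate 1 by 0.03 in the knockout and 0.04 in wild type in log2. Of the 13 anterior markers, 3 were over 2-fold higher there in both genotypes and 1 over 2-fold lower. Each of the 3 pairs also gave Aldh1a2 a higher value in the knockout, with log2 differences of 1.69, 1.37 and 0.63 (mean 1.23, limma unadjusted p = 0.00036 and adjusted p = 0.999 with the block), and its groups overlapped. Tbx18, of the same list, was lower in the knockout in each pair, at -0.65, -1.15 and -1.26 (limma unadjusted p = 0.0476 and adjusted p = 0.999 with the block). Tbx18 was dim, at 0.339 to 1.76. In these 8 lists only Hes5, counted with the neural tube but also a Notch target, passed in limma with the block (adjusted p = 0.00578, higher in the knockout). Whether the makeup of the tissue has a part in the results for the posterior genes was not tested, and in bulk tissue fewer cells of a type and less RNA per cell cannot be told apart.

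**Figure D4:**
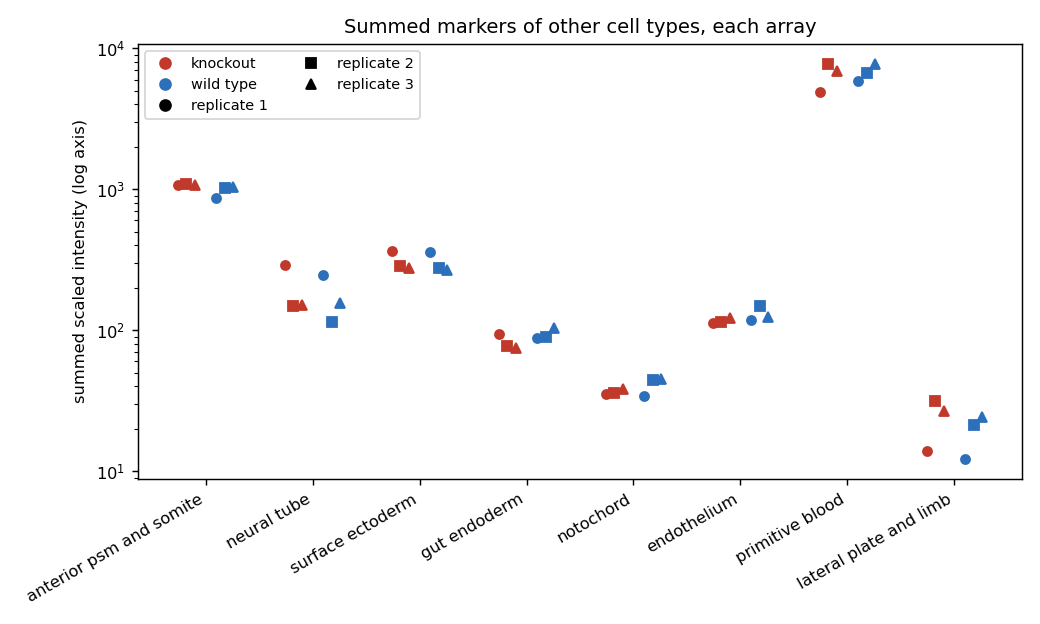
Summed scaled intensity (log axis) of the measured markers of 8 neighbouring tissues on each array, knockout in red and wild type in blue, with symbols for the replicate number. The sums are set by a few bright probes: neural tube markers sum highest on replicate 1 (289 in the knockout and 247 in wild type) although their median is lower there (-0.77 and -0.46 in log2), and blood markers sum lowest there (4928 and 5824) although their median is higher (0.47 and 0.90). The neural tube medians fall on dim probes, below the array median on every array.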

How the data were processed

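Total RNA was converted into digoxigenin-labelled cRNA and hybridised, per the labels' protocols, to one-colour Applied Biosystems arrays. A human array is named in the descriptions of the samples, but the organism and the probe annotation are mouse. The authors deposited linear intensities with array medians near 1. How they were scaled, corrected for background and filtered is not given in the sources used here. There were 0 missing values and 0 values at or below 0. Of 33012 probes, 14411 had 1 gene, 247 several and 18354 were unnamed here. Signal over background limits dim probes, and the number of arrays limits precision.

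Intensities were converted to log2 without offset or filter. Genotypes were compared by limma 3.58.1 in R 4.3.3 (lmFit, eBayes with an intensity trend, two-sided, Benjamini-Hochberg over all probes, threshold 0.05), without and, as an alternative, with the replicate number as a block. Residual degrees of freedom were 4 and 2, prior degrees of freedom 3.66 and 6.64. Single genes also had an exact permutation test. Fits were tested on simulated data. Replicate numbers occur in both genotypes, and deviations from group means correlated within number by 0.757, 0.442 and 0.374, so numbers were treated as pairing arrays. Across numbers 2 and 3 the correlations were 0.419 and 0.397, so the pairing rests on replicate 1, and the labels tie no number to a litter or day.

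The 10 genes, the 14 other gene lists and the tests were chosen with earlier results of these data known. All 10 genes are named. From each list up to 4 genes with the smallest unadjusted p without the block are eligible, and Nrarp and Aldh1a2 serve as checks. Promoter sequences are from RefSeq. Tables were made with pandas 2.3.3, exact tests with scipy 1.17.1, and figures with matplotlib 3.10.9 under Python 3.11.15.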

Additional observations from a re-analysis of the deposited data

How the results depend on the processing

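The count of 0 genes called among the 10 stayed at 0 under all 17 alternatives, and the smallest adjusted p of any of the 10 was 0.646. With the replicate block the count was also 0, so the paired fit changed no call among them. This is no sign of stability, as the fit without the block called 0 of 33012 probes and missed Nrarp (limma adjusted p = 0.428, against 0.00042 with the block). Since each gene had 1 probe, averaging probes could not give another value. Leaving out single arrays unbalances the replicates and moved the log2 differences between genotypes over these ranges: Tbx6 -0.017 to 0.49, Msgn1 -1.11 to 1.47, Cdx2 -0.79 to 0.24, Evx1 -0.10 to 0.011, Wnt3a -0.27 to 0.24, Wnt5a -1.05 to 1.04 and Wnt5b -0.34 to 0.080, all with a change of sign, whereas Cdx4 (-0.31 to -0.13), Rspo3 (-0.39 to -0.12) and Nkx1-2 (0.18 to 1.67) kept theirs. Within replicate 1 alone Msgn1 (-0.0018), Cdx2 (0.22) and Wnt3a (0.016) also turned sign. Array weights turned Nkx1-2 (-0.11) and Wnt5a (0.094), and centring on the 75th percentile turned Wnt3a (0.045) and Wnt5a (0.037). Wnt5a, at -0.02, also turned to 0.0047 with quantile normalization (with and without the replicate block) and to 0.0042 within replicates 2 and 3 (with and without the block). The cause of these turns was not tested. Over 2-fold higher values on replicate 1 were held by 2 genes, not 3, after either rescaling, which was chosen after seeing the data. A further 2 combinations with the block were also added then.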
